A study of Mus musculus with 12 samples.

Results

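The 10 genes described here encode chemokines, small secreted or membrane-bound proteins that guide the movement of cells: Ccl2, Ccl3, Ccl4, Ccl6, Ccl9, Ccl12, Cxcl10, Cxcl16, Cxcl12 and Cx3cl1. They were taken by symbol from a list, and all 10 were found among the 52459 genes of the count tables. Their levels were compared in RNA from male mice of 4 months of age, either homozygous for a targeted disruption of Tpp1 (Tpp1-/-, T) or wild type (normal, N). Tpp1 encodes a lysosomal peptidase whose loss causes classical late-infantile neuronal ceroid lipofuscinosis, a childhood neurodegenerative disease, and the mutant is a germline model in which every cell lacks the intact gene. The line was kept by crossing heterozygotes and the N mice were siblings. From both genotypes the cerebellum (Cb) and the forebrain with the midbrain (F/M) were sequenced, which gave the groups Cb-N, Cb-T, F/M-N and F/M-T with 3 libraries each. The methods of the study give 3 mice of each genotype but the labels do not tie a library to a mouse, so the p-values measure the spread between these libraries.

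Chemokines are sorted into families by the spacing of their first conserved cysteines, and each acts through G protein-coupled receptors on the cells it attracts. In the brain most CC and CXC chemokines are made at low levels in health and are induced in microglia, astrocytes, vessels or invading leukocytes by injury, infection or interferon. Cxcl12 and Cx3cl1 are exceptions that are made constantly. Cx3cl1 (fractalkine) stands mainly on neurons and binds Cx3cr1, the receptor carried by microglia.

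The coding sequence around the first cysteines shows to which family a gene belongs and is given for 9 of the 10, with the cysteine codons in capitals. In the CC genes the codons are adjacent, in the CXC genes they are separated by 1 codon, and in Cx3cl1 by 3 codons.
Ccl2: ccactcaccTGCTGCtactcattc
Ccl12: ccagtcacgTGCTGTtataatgtt
Ccl4: cccacttccTGCTGTttctcttac
Ccl6: tcttcagacTGCTGCttctcttat
Ccl9: tcttcagatTGCTGCctgtcctat
Cxcl10: acggtccgcTGCaacTGCatccatatc
Cxcl16: gctggaagtTGTtctTGTgatcgtacc
Cxcl12: agctaccgaTGCcccTGCcggttcttc
Cx3cl1: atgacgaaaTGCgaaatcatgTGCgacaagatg
These windows were read from the GENCODE M21 transcripts on GRCm38. The Ccl2 window lies at chr11:82036497-82036520 on the plus strand, in exon 2 of 3, and that of Ccl12 at chr11:82102625-82102648 on the plus strand, in exon 2 of 3. Ccl4 has it at chr11:83663473-83663496 on the plus strand, in exon 2 of 3. For Ccl6 it lies at chr11:83589377-83589400 on the minus strand, in exon 3 of 4, and for Ccl9 at chr11:83575917-83575940 on the minus strand, in exon 3 of 4, both one exon further in than in the other CC genes. The windows of the CXC genes lie at chr5:92348172-92348198 on the minus strand, in exon 2 of 4 (Cxcl10), at chr11:70459118-70459144 on the minus strand, in exon 2 of 5 (Cxcl16) and at chr6:117171499-117171525 on the plus strand, in exon 2 of 4 (Cxcl12). That of Cx3cl1 lies at chr8:94778042-94778074 on the plus strand, in exon 2 of 3. All 6 CC genes lie within 1629.1 kb of chromosome 11, from 82035571 to 83664683. Within that stretch Ccl9, Ccl6, Ccl3 and Ccl4 follow each other in this order between 83572919 and 83664683.

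RefSeq promoter sequences of GRCm38.p6, from 250 bases before to 50 bases after the start, were found for 7 of the 10 genes. They were searched for 5 short motifs of factors that induce chemokines, on both strands except for the TATA box: the interferon-stimulated response element (GAAA, any 2 bases, GAAA), the interferon-gamma-activated site TTCNNNGAA, the AP-1 site TGANTCA, the TATA box TATAAA and the kappaB site of NF-kappaB. The Cxcl10 promoter is shown because it held the interferon element, the AP-1 site and the kappaB site. In capitals stand GAAAGTGAAA 213 bases before the start, kappaB matches 159, 104 and 103 bases before it, of which the last pair overlaps, and the AP-1 match 74 bases before it. Its position is chr5:92348840-92349139 on the minus strand.
Cxcl10 promoter: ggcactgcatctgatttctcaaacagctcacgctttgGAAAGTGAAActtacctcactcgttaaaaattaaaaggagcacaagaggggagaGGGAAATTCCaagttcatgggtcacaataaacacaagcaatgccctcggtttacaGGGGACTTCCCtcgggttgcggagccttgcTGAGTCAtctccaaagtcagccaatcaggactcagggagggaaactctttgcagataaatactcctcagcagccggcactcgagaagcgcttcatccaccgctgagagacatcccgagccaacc
The Ccl9 promoter is shown for contrast, as the other one with a kappaB match. Its capitals mark TATAAA, the AP-1 match TGAATCA and the kappaB match GGAAAGCCCC at 92, 53 and 35 bases before the start. It lies at chr11:83578587-83578886 on the minus strand.
Ccl9 promoter: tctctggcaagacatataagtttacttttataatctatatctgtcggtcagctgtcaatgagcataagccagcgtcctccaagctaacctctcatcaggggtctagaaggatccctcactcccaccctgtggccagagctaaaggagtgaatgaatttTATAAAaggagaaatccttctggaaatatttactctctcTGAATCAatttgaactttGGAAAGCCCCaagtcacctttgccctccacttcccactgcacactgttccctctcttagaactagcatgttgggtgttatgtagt
The interferon element occurred in 3.44% of all 32851 promoters of the same length, the kappaB site in 8.46%, the AP-1 site in 7.81% and TATAAA in 8.32%. TATAAA was also found in the promoters of Cx3cl1 and Ccl12. The interferon-gamma-activated site, present in 8.3% of all promoters, was in none of the 7. The promoters of Cxcl12, Ccl6 and Ccl3 held none of the 5 motifs in this window. These matches describe letters only.

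Libraries held 21428379 to 24458189 counts, and 3 counts, taken as the floor of detection, corresponded to 0.121 to 0.139 CPM, counts scaled to library size by the TMM method over the 12 libraries. Floors and counting intervals cover counting error only. Tpp1 itself, at 87.7 to 114 CPM in the 6 N libraries, was at 21.8 to 31.0 CPM in the 6 T libraries. Some markers of dissected regions differed between the genotypes. Of 14 genes of the hindbrain outside the cerebellum, 12 were tested in Cb and 11 of these rose in Cb-T, with a summed level of 64.4 to 66.6 CPM against 48.4 to 52.0 in Cb-N, and 5 Hox genes were at 0 in Cb-N. Slc6a5, the tested gene not called, made up most of these sums, at 48.7 CPM on average in Cb-N and 47.5 in Cb-T. The sums therefore understate the rise of the called genes. In F/M 3 were tested, Tph2, Slc6a4 and Slc6a5, and all 3 rose, with sums of 18.2 to 18.3 CPM in F/M-T against 2.03 to 3.17 in F/M-N. Most of this was Tph2, from 1.21 to 9.65 CPM on average, and Slc6a4, from 0.144 to 6.33. The Hox genes of the list stayed at 0 to 2 counts in every F/M library, so the rise there was not one of the whole list. Of 7 genes of the olfactory bulb 6 fell in F/M-T, with sums of 29.5 to 31.3 CPM against 55.6 to 56.6 in F/M-N (5 with DESeq2, which gave Tbx21 no adjusted p). In Cb 4 of them were tested and 2 called, Eomes lower at 0.217 and Cdhr1 higher at 5.53-fold, with sums of 27.6 to 31.1 CPM in Cb-T against 66.0 to 69.8 in Cb-N. Most of that fall was Eomes, at 53.2 CPM on average in Cb-N and 11.4 in Cb-T. Eomes was at only 3.49 CPM in F/M-N, so its level in Cb cannot be read as olfactory bulb tissue. The part of dissection in the results on the chemokines was not tested.

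Most of the chemokine genes rose in both areas of the Tpp1-/- brain. Ccl3, Ccl4, Ccl6, Ccl9, Ccl12, Cxcl10 and Cxcl16 rose in Cb-T and also in F/M-T, by between 2.68 and 17.6 fold, and none of the 9 tested genes was called lower. A gene was called at an adjusted p below 0.1 (edgeR's quasi-likelihood test, adjusted over all genes tested) together with a change of at least 1.5 fold. The 7 genes called higher compare with 8.54% of all tested genes called higher in Cb, or 11.2% in either direction, and with 2.63% higher, or 3.49% in either direction, in F/M. The other 2 tested genes, Cxcl12 and Cx3cl1, changed by less than 1.5 fold, and Ccl2 had too few counts for the test in either area. In Cb all 3 T libraries lay above all 3 N libraries for 9 of the 10 genes, every one but Cxcl12, against 27.7% of all tested genes. In F/M they did so for 7 of the 10, against 13.3%. The median log2 fold change of the 9 tested genes came to 2.44 for Cb and 1.72 for F/M, where the medians of all tested genes were 0.012 and 0.0078. Ccl3, Ccl4, Ccl9, Ccl12 and Cxcl10 in Cb passed the filter on low counts only through their T libraries. In F/M this held for Ccl3, Ccl4, Ccl12 and Cxcl10. Genes so low in N are tested only if high in T. The shares called and the medians are therefore partly set by that filter.

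**Figure D1:**
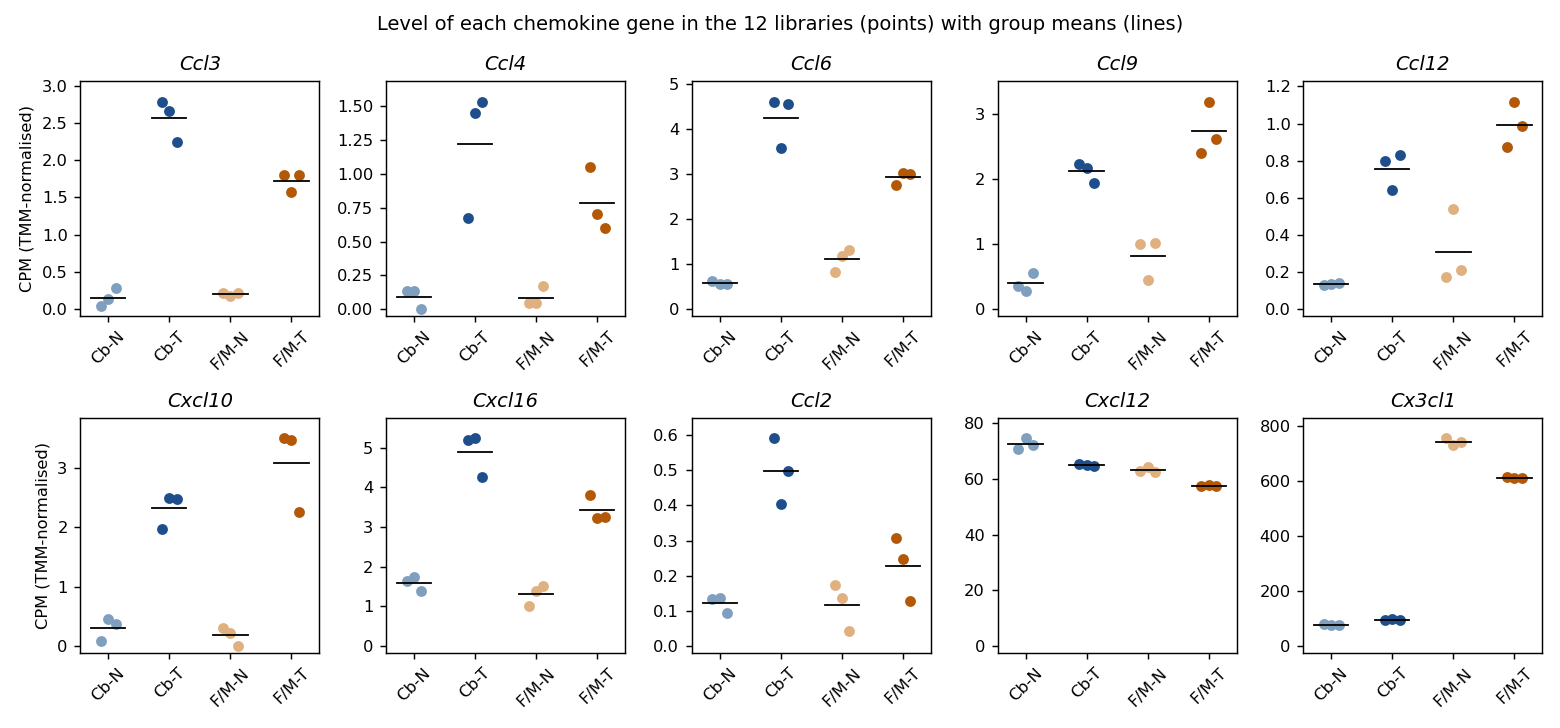
CPM of the 10 chemokine genes in every library (points) and the group means (lines), with a linear axis per gene. For Ccl3, Ccl4, Ccl6, Ccl9, Ccl12, Cxcl10 and Cxcl16 every T library lies above every N library of its area, whereas Cx3cl1 is at 609 to 754 CPM in F/M and 74.5 to 96.0 CPM in Cb.

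Ccl3 and Ccl4 (MIP-1alpha and MIP-1beta), neighbours on chromosome 11, encode attractants of monocytes and T cells. Ccl3 had 1, 3 and 6 counts in the Cb-N libraries and 66, 66 and 54 in Cb-T. In F/M it had 5, 4 and 5 counts in F/M-N and 41, 38 and 42 in F/M-T. The N and T libraries were thus far apart in both areas, with Cb-N close to the floor. Its rise was 16.5-fold in Cb (log2 fold change 4.04, SE 0.34, adjusted p = 9.2e-14) and 8.46-fold in F/M (3.08, SE 0.31, adjusted p = 4.3e-07). Without Cb-N replicate 3, the library with 6 counts, the rise in Cb was 26.9-fold. Ccl4 had 3, 3 and 0 counts in Cb-N against 16, 36 and 37 in Cb-T. In F/M-N it had 1, 1 and 4 counts, against 24, 17 and 14 in F/M-T. Cb-T replicate 1 was the lowest of its group for Ccl4 although not for Ccl3. Ccl4 rose 12.9-fold in Cb (log2 fold change 3.68, SE 0.49, adjusted p = 2.3e-08) and 8.71-fold in F/M (3.12, SE 0.51, adjusted p = 0.00017), the widest errors of the called genes in both areas. Without F/M-N replicate 3, the library with 4 counts, the rise in F/M was 16.2-fold.

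Ccl6 and Ccl9 encode rodent CC chemokines that act through Ccr1. Ccl6 was measured at 0.621, 0.550 and 0.557 CPM in Cb-N and at 4.60, 3.58 and 4.56 CPM in Cb-T. In F/M-N it was already higher, at 0.824, 1.17 and 1.31 CPM, and F/M-T reached 2.76, 3.02 and 3.00 CPM. Among the groups Ccl6 was therefore highest in Cb-T and lowest in Cb-N. It rose 7.36-fold in Cb (log2 fold change 2.88, SE 0.21, adjusted p = 2.4e-15) and 2.71-fold in F/M (1.44, SE 0.19, adjusted p = 2.0e-05). Ccl9 stood at 0.355, 0.275 and 0.557 CPM in Cb-N against 2.23, 2.17 and 1.95 CPM in Cb-T. Its F/M-N libraries had 0.997, 0.450 and 1.02 CPM and its F/M-T libraries 2.41, 3.19 and 2.61 CPM. Unlike Ccl6, Ccl9 had its highest mean in F/M-T. Its rise was 5.36-fold in Cb (log2 fold change 2.42, SE 0.28, adjusted p = 6.1e-10) and 3.38-fold in F/M (1.76, SE 0.24, adjusted p = 2.2e-05).

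Ccl12 and Ccl2 (MCP-5 and MCP-1) encode ligands of Ccr2, the receptor that draws monocytes from the blood. Ccl12 had 3 counts in each Cb-N library and 19, 16 and 20 in Cb-T. In F/M-N it had 4, 12 and 5 counts, and in F/M-T 20, 27 and 23. The control libraries of Cb lay at the floor, and F/M-N replicate 2 was the highest of its group. Ccl12 rose 5.42-fold in Cb (log2 fold change 2.44, SE 0.44, adjusted p = 1.1e-05) and 3.29-fold in F/M (1.72, SE 0.37, adjusted p = 0.0021), where it came to 5.16-fold without F/M-N replicate 2. Ccl2 had the fewest reads of the 10 genes, with 3, 3 and 2 counts in Cb-N and 14, 10 and 12 in Cb-T. In F/M it had 4, 3 and 1 counts in F/M-N and 7, 6 and 3 in F/M-T. The groups were apart in Cb and overlapped in F/M. The ratio of T to N was 4.08 in Cb (95% counting interval 1.87 to 10.2), and an exact two-sided permutation test over the 6 libraries gave p = 0.1, the smallest p that 3 against 3 allows. In F/M the ratio was 1.96 (0.791 to 5.29) and the exact permutation p was 0.3. Without a filter on low counts, edgeR's adjusted p for Ccl2 was 0.0018 in Cb and 0.52 in F/M, and that of DESeq2 in Cb was 0.027.

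Cxcl10, induced by interferons and a ligand of Cxcr3 on activated T cells, rose in both areas. Its counts were 2, 10 and 8 in Cb-N and 47, 62 and 60 in Cb-T. In F/M-N they were 7, 5 and 0, and in F/M-T 80, 84 and 53. Every N library had 10 counts or fewer and every T library at least 47. Cxcl10 rose 7.61-fold in Cb (log2 fold change 2.93, SE 0.30, adjusted p = 4.9e-11) and 17.6-fold in F/M (4.14, SE 0.38, adjusted p = 1.3e-07). The F/M value rested on few control counts and was 11.7-fold without F/M-N replicate 3, the library at 0, and 27.6-fold without F/M-N replicate 1. Of its 2252 annotated exonic bases, 133 (5.9%) overlap the gene Art3 on the opposite strand, and the strand setting of the counting is not stated.

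Cxcl16 encodes a membrane-bound chemokine that can be shed and binds Cxcr6. It was at 1.64, 1.74 and 1.39 CPM in Cb-N and at 5.19, 5.23 and 4.27 CPM in Cb-T. In F/M-N it was at 0.997, 1.40 and 1.52 CPM and in F/M-T at 3.81, 3.23 and 3.25 CPM. The T libraries of both areas stood well above their controls. It rose 3.10-fold in Cb (log2 fold change 1.63, SE 0.16, adjusted p = 1.2e-11) and 2.68-fold in F/M (1.42, SE 0.18, adjusted p = 1.3e-05). Cxcl16 shares 552 of its exonic bases (18.3%) with Zmynd15 on the opposite strand.

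Cxcl12 (SDF-1) holds progenitors and leukocytes in place through Cxcr4 and is scavenged by Ackr3. It was at 70.7, 74.5 and 72.3 CPM in Cb-N and 65.5, 64.9 and 64.7 CPM in Cb-T. The F/M-N libraries had 62.8, 64.5 and 62.6 CPM and the F/M-T libraries 57.6, 57.7 and 57.4 CPM. In both areas all T libraries were below all N libraries, but by a small margin. The fold was 0.906 in Cb (log2 fold change -0.14, SE 0.037, adjusted p = 0.0011) and 0.930 in F/M (-0.10, SE 0.039, adjusted p = 0.062), inside the limit of 1.5 fold, so neither was called.

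Cx3cl1 differed in direction between the areas. It was at 78.4, 74.5 and 74.8 CPM in Cb-N and 95.3, 96.0 and 93.1 CPM in Cb-T. In F/M-N it was at 754, 730 and 741 CPM, and in F/M-T at 612, 610 and 609 CPM. The T libraries thus all lay above the N libraries in Cb and all below them in F/M. The fold was 1.26 in Cb (log2 fold change 0.33, SE 0.034, adjusted p = 3.4e-11) and 0.842 in F/M (-0.25, SE 0.025, adjusted p = 5.4e-07), under the fold limit in both areas. The summed neuronal markers were 6930 to 7089 CPM in Cb-T against 7488 to 7556 in Cb-N, and 9624 to 9687 CPM in F/M-T against 10253 to 10291 in F/M-N. The part of neuron number or of dissection in the Cx3cl1 values was not tested.

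**Figure D2:**
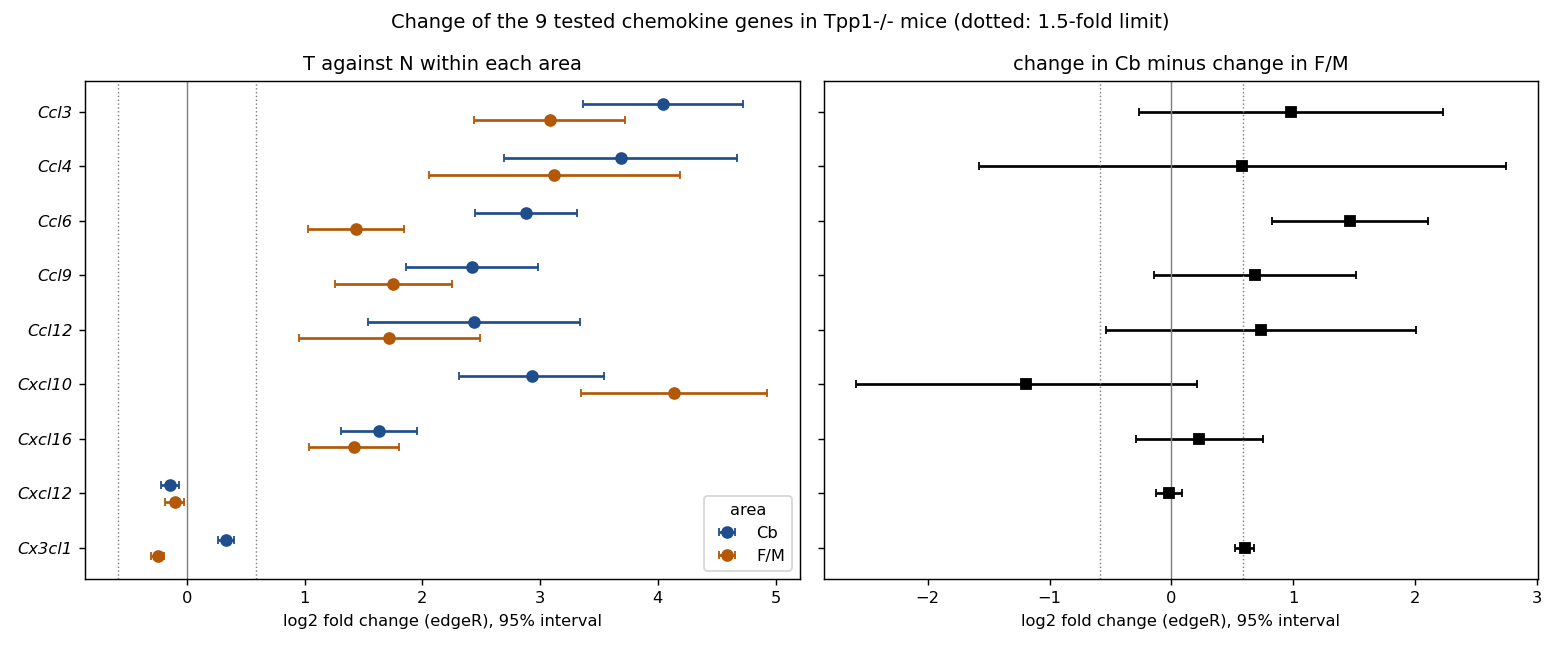
Log2 fold change with 95% interval (edgeR) of the 9 tested chemokine genes, T against N in Cb and in F/M (left) and the change in Cb minus that in F/M (right), with dotted lines at 1.5 fold. All but Cxcl12 and Cx3cl1 lie beyond the line in both areas, and in the difference the intervals of Ccl6 and Cx3cl1 alone exclude 0.

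Whether a gene changed differently in the 2 areas was tested as the interaction of area and genotype over all 12 libraries. With 3 mice of each genotype in the methods, Cb and F/M libraries may come from the same mice, and they were fitted as separate samples. Ccl6 and Cx3cl1 were called, 2 of the 9 tested genes against 7.61% of all genes. The log2 fold change of Ccl6 was higher in Cb by 1.46 (SE 0.31, adjusted p = 0.00076), a 2.76-fold difference. That of Cx3cl1 was higher in Cb by 0.60 (SE 0.039, adjusted p = 3.9e-13), from 0.32 in Cb and -0.28 in F/M when all 12 libraries were fitted together, a 1.52-fold difference that only just passed the limit of 1.5. The Cx3cl1 difference fell under that limit with RLE size factors, with a mean count of at least 50, with DESeq2, without Cb-T replicate 1 and without Cb-T replicate 3 (0.55 to 0.58 on the log2 scale), with adjusted p of at most 8.4e-11. For Cxcl10 the difference was -1.19 (95% interval -2.59 to 0.21, adjusted p = 0.23), and it was called at -1.63 without Cb-N replicate 1, the library with 2 counts. For Ccl3 it was 0.98 (-0.27 to 2.23) and for Ccl9 0.69 (-0.14 to 1.52), called at 0.97 without F/M-N replicate 2. For Ccl4, Ccl12 and Cxcl16 the intervals ran from -1.58 to 2.74, from -0.54 to 2.01 and from -0.29 to 0.75, so that these counts left room for a difference in either direction. For Cxcl12 the interval was narrow, from -0.12 to 0.084.

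Between the areas of the controls, 4 of the 9 tested genes were called higher in F/M-N when set against Cb-N, against 42.4% of all genes called in either direction. They were Cx3cl1 at 9.77-fold (log2 fold change 3.29, SE 0.028, adjusted p = 5.1e-37), Ccl12 at 2.19-fold (adjusted p = 0.066), Ccl9 at 2.08-fold (adjusted p = 0.0089) and Ccl6 at 1.90-fold (adjusted p = 0.0036). The Ccl12 call was lost without any 1 of the Cb-N libraries, without F/M-N replicate 2, with limma-voom and with a limit of 0.05. With only these 2 groups in the fit 5 members were tested and 3 called, Cx3cl1, Ccl9 and Ccl6, and with a mean count of at least 50 only Cx3cl1 and Ccl6 were called. In the Tpp1-/- brain 2 were called between the areas, against 35.9% of all genes. Cx3cl1 was 6.44-fold higher in F/M-T than in Cb-T (adjusted p = 4.2e-35), and Ccl4 was at 0.641 of its Cb-T level (adjusted p = 0.073). The Ccl4 call was lost with DESeq2, limma-voom, a mean count of at least 50 and a limit of 0.05, and without F/M-T replicate 2, F/M-T replicate 3, Cb-T replicate 2 or Cb-T replicate 3. Ccl6, called higher in F/M among controls, was at 0.691 of its Cb-T level in F/M-T (adjusted p = 0.0015), inside the fold limit.

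Levels of different genes were compared per kb of annotated exon, on which scale Cx3cl1 was first and Cxcl12 second in all 4 groups. Cx3cl1 had 19.3 ± 0.552 CPM per kb (SD, n = 3) in Cb-N, 24.1 ± 0.393 in Cb-T, 189 ± 3.01 in F/M-N and 155 ± 0.362 in F/M-T. Cxcl12 had 8.87 ± 0.238, 7.96 ± 0.051, 7.74 ± 0.127 and 7.04 ± 0.019 CPM per kb in the same order. These genes made up 94.0% of the summed level per kb of all 10 in Cb-N and 98.8% in F/M-N, and 71.6% and 93.9% in Cb-T and F/M-T. Ccl3 went from the sixth place in Cb-N and the seventh in F/M-N to the third in both T groups. It reached 3.34 ± 0.373 CPM per kb in Cb-T, above every library of Ccl6, the next gene, at 2.36 ± 0.320. In F/M-T Ccl3 was at 2.25 ± 0.168 CPM per kb and its libraries overlapped with those of Ccl12, the next at 1.85 ± 0.226. In Cb-N the libraries of Cxcl16 lay apart from those of Ccl6, the next gene, and those of Ccl6 apart from those of Ccl12, whereas the genes below could not be told apart from their neighbours. The libraries of neighbours in the order overlapped for 5 of 9 pairs in Cb-N and 7 of 9 in F/M-N, and for 3 and 5 of 9 in Cb-T and F/M-T. Ccl2 was last in Cb-N, Cb-T and F/M-T, with 0.436 ± 0.083 CPM per kb in Cb-T.

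**Figure D3:**
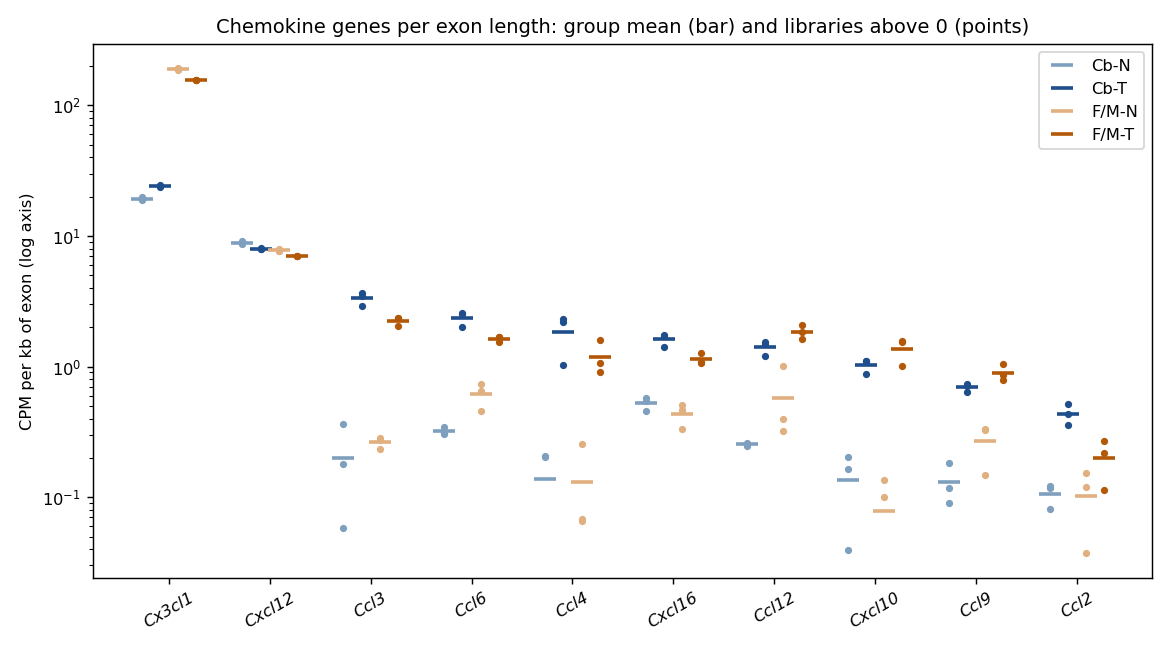
CPM per kb of exon for the 10 chemokine genes on a log axis, as group means (bars) and single libraries (points, those at 0 left out). Cx3cl1 lies between 19.0 and 192 and Cxcl12 between 7.01 and 9.12 in all libraries, and the other 8 genes stay at 3.63 or less.

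Markers of microglia rose along with the chemokines. Of 20 microglial genes 17 rose in Cb and 9 in F/M, to unequal extents. Fcrls, Tyrobp and C1qa rose 9.61-, 7.64- and 6.42-fold in Cb and 2.01-, 2.60- and 2.27-fold in F/M, whereas P2ry12, Tmem119 and Sall1, the 3 genes not called in Cb, had folds of 1.42, 1.24 and 1.49 there and of 0.995, 0.957 and 0.966 in F/M. The median fold of the 19 genes other than Cx3cr1 was 3.03 in Cb and 1.48 in F/M. The sum of the markers without Cx3cr1 (19 genes) was 818 to 826 CPM in Cb-T after 224 to 238 in Cb-N, 3.58 times the mean. In F/M it was 632 to 654 CPM in F/M-N and 989 to 1014 in F/M-T, 1.57 times. In RNA of whole tissue, fewer cells of a type and less RNA per cell cannot be told apart. Divided by this sum in each library, which lowers every gene of an area by about the same factor, the mean of Ccl3 was 4.74 times as high in Cb-T as in Cb-N and 5.41 times in F/M, and that of Ccl4 3.71 and 5.88 times. For Ccl6 the ratio was 2.06 in Cb and 1.70 in F/M, for Ccl9 1.51 and 2.13, and for Ccl12 1.55 and 2.05. Cxcl10 had 2.13 in Cb but 11.0 in F/M. For Cxcl16 the ratio was 0.858 in Cb, where its range of 5.16 to 6.34 CPM per 1000 CPM of markers in Cb-T overlapped that of 5.84 to 7.64 in Cb-N, and 1.68 in F/M. For Ccl2 it was 1.14 in Cb and 1.23 in F/M, with overlapping libraries in both. For Cxcl12 it was 0.251 and 0.580, and for Cx3cl1 0.349 and 0.525. The sum is weighted to abundant markers, with 5 of the 19 making up 54.8% to 63.7% of it. With the geometric mean of the markers in its place, a choice made after seeing the data, the ratio of Cxcl16 was 0.938 in Cb, again with overlapping libraries, and that of Ccl3 5.18. Without 1 control library the ratio came to 7.76 for Ccl3 in Cb (without Cb-N replicate 3), and in F/M to 11.2 for Ccl4 (without F/M-N replicate 3), 3.31 for Ccl12 (without F/M-N replicate 2) and 7.36 or 17.3 for Cxcl10 (without F/M-N replicate 3 or 1). These ratios are given without a test.

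**Figure D4:**
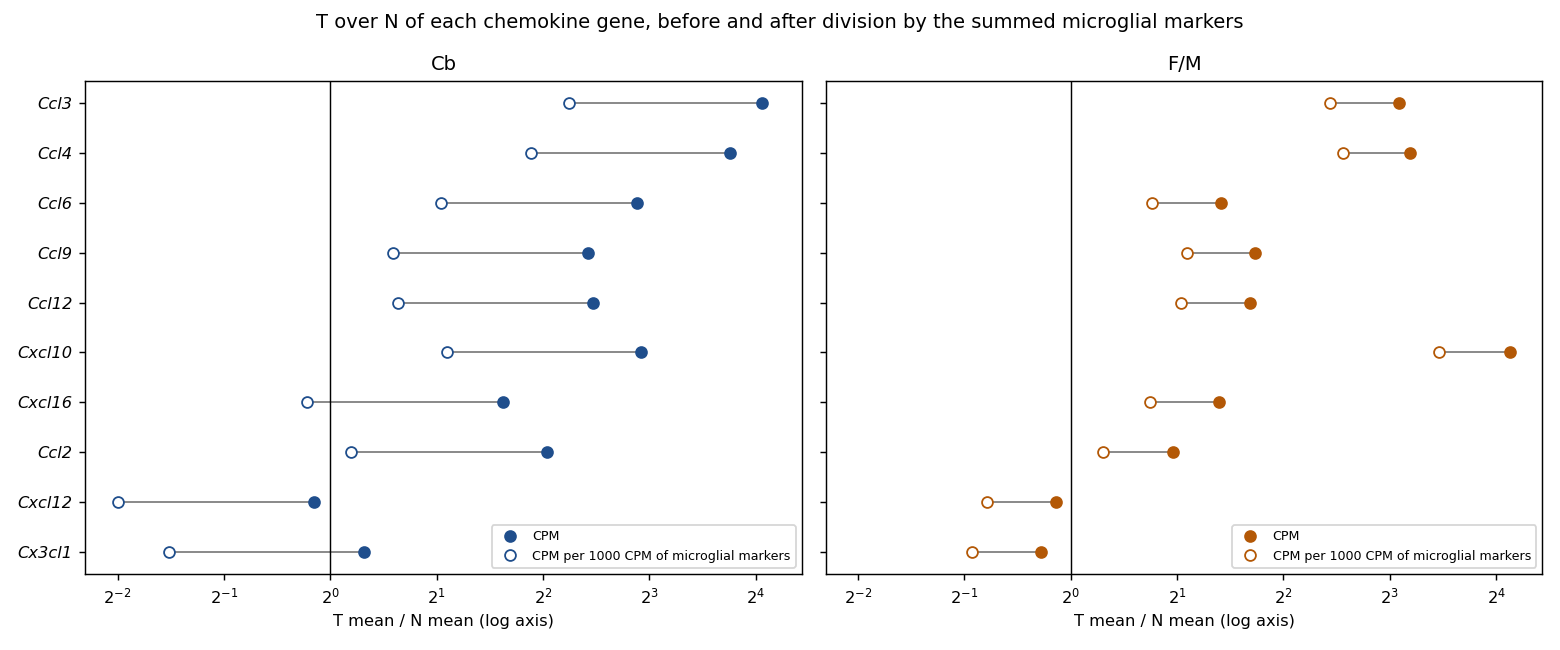
Ratio of the T mean to the N mean of each chemokine gene (log axis), from CPM (filled) and from CPM per 1000 CPM of 19 microglial markers (open), in Cb and F/M. The division lowers all genes of an area by about the factor of the marker sum, 3.58 in Cb and 1.57 in F/M, and takes Ccl3 in Cb from 16.7 to 4.74 and Cxcl16 in Cb from 3.08 to 0.858.

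In the lists of markers of other cells that could carry chemokines, fewer genes were called. Of 10 genes of border macrophages and monocytes, 8 were tested, and 4 rose in Cb and 1 in F/M, with sums of 9.74 to 11.1 CPM in Cb-N, 14.9 to 15.9 in Cb-T, 14.3 to 16.7 in F/M-N and 17.0 to 18.4 in F/M-T. With DESeq2 3 were called in Cb, where F13a1 came just under 1.5 fold, and 0 in F/M, where Ms4a7 had no adjusted p. Of 13 lymphocyte genes 1, Trac, was tested in Cb, where it rose 1.53-fold, and 2, Cd4 and Trac, in F/M, where none was called or had an unadjusted p below 0.05. The Cd3, Cd8 and B cell genes had too few counts for the test. The lymphocyte sums were 2.83 to 3.03 CPM in Cb-N against 4.72 to 5.47 in Cb-T, and 9.10 to 10.4 in F/M-N against 10.7 to 11.4 in F/M-T. Of 8 neutrophil genes 3 were tested in Cb and 1 in F/M, and 0 were called by edgeR, DESeq2 or limma-voom or had an unadjusted p below 0.05, with sums of at most 4.13 CPM, and Ly6g and Elane were at 0 in F/M-T. Of 10 astrocyte genes 2 rose in Cb, Gfap at 7.53-fold and Aqp4 at 1.73-fold, and 1 in F/M, Gfap at 3.39-fold, with an unadjusted p below 0.05 for 9 genes in Cb and 8 in F/M. The astrocyte sums were 6513 to 6592 CPM in Cb-N against 8331 to 8376 in Cb-T, and 5728 to 6048 in F/M-N against 6571 to 6981 in F/M-T. Of 10 endothelial genes 0 were called in either area by these 3 tools, with an unadjusted p below 0.05 for 7 in Cb and 4 in F/M. The part of these cells in the rise of the chemokines was not tested.

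Some receptors of these chemokines rose in Cb. Of 23 chemokine receptors 8 were tested in Cb, where 4 rose, and 9 in F/M, where 0 were called by edgeR, DESeq2 or limma-voom and 2, Cx3cr1 and Ackr1, had an unadjusted p below 0.05. Cx3cr1, the microglial receptor of Cx3cl1, was at 14.8, 15.7 and 13.5 CPM in Cb-N and at 41.4, 42.5 and 41.1 CPM in Cb-T, a 2.86-fold rise (adjusted p = 1.7e-25). In F/M it was at 48.7 to 53.7 CPM in F/M-N and 60.5 to 64.7 CPM in F/M-T, 1.27-fold (adjusted p = 1.9e-05), inside the fold limit. The difference between the areas was called (1.20 on the log2 scale, SE 0.074, adjusted p = 1.6e-13).

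Cxcr4, the signalling receptor of Cxcl12, rose 1.56-fold in Cb (adjusted p = 0.00042), from 2.29 to 3.11 CPM in Cb-N to 3.50 to 4.55 CPM in Cb-T, and its fold in F/M was 1.18 (adjusted p = 0.37). Ackr3, which removes Cxcl12, was at 1.33 of its control in Cb (adjusted p = 0.00022) against 1.11 in F/M (adjusted p = 0.18), both inside the limit. Ccr2, to which Ccl2 and Ccl12 bind, was at 5 to 18 counts in every library, with folds of 1.11 in Cb (adjusted p = 0.77) against 1.00 in F/M (adjusted p = 1.0). Ccr1, the receptor of Ccl6 and Ccl9, was tested in F/M only, at 1.27-fold (adjusted p = 0.59), and had 2, 11 and 7 counts in Cb-N against 7, 5 and 11 in Cb-T. Cxcr3, the receptor of Cxcl10, had 0 counts in all 6 N libraries and 0, 4 and 2 in Cb-T and 2, 3 and 4 in F/M-T. Cxcr6, the receptor of Cxcl16, had 0 counts in every N library but F/M-N replicate 2, which had 1, and 1 to 5 counts in each T library. Ccrl2, which binds chemoattractants without signalling, rose 1.58-fold in Cb (adjusted p = 0.034), a call lost with DESeq2 (adjusted p = 0.13).

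**Figure D5:**
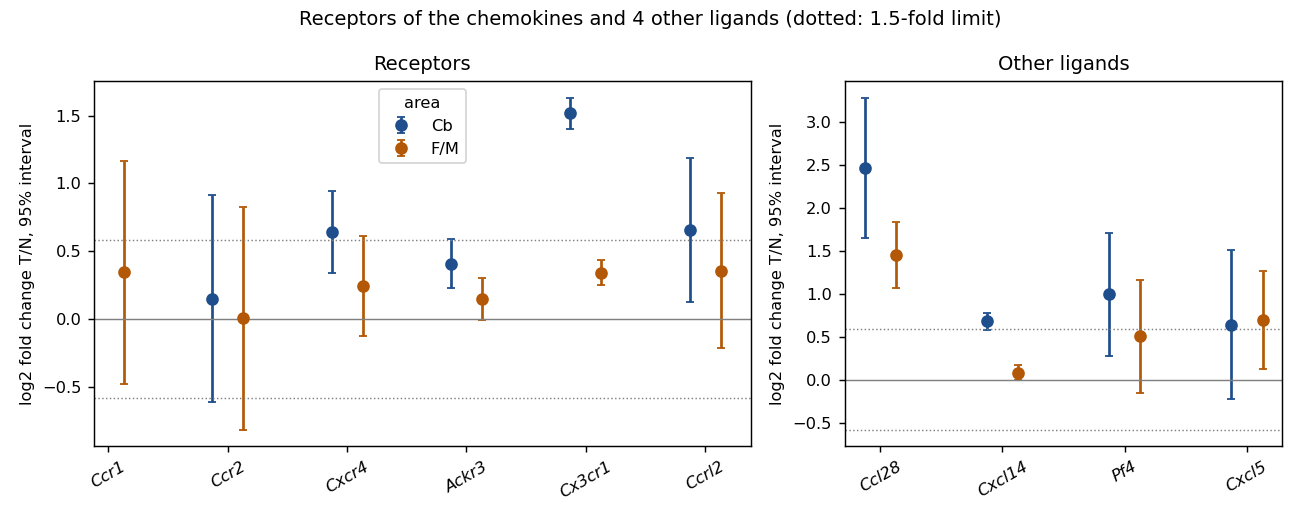
Log2 fold change of T against N with 95% interval (edgeR) for chemokine receptors and 4 other ligands in Cb and F/M, with dotted lines at 1.5 fold. Cx3cr1 in Cb (1.52) is the highest receptor value, and Ccl28 exceeds the line in both areas. Ccr1 has no value in Cb because it was not tested there.

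Of the 26 other chemokine ligands, most had too few counts: 6 were tested in Cb and 7 in F/M, and 3 were at 0 in all 12 libraries. In Cb 4 rose and in F/M 3, and none was called lower. With DESeq2 1 was called in F/M, since Ccl5 had no adjusted p and that of Cxcl5 was 0.19. Ccl28, a mucosal chemokine, had 5, 6 and 1 counts in Cb-N and 24, 23 and 27 in Cb-T, a 5.51-fold rise (adjusted p = 1.7e-06). In F/M it rose 2.73-fold (adjusted p = 1.0e-05), from 26, 32 and 31 counts to 73, 75 and 95. Cxcl9, an interferon-induced ligand of Cxcr3 like Cxcl10, had 1, 0 and 0 counts in Cb-N and 20, 14 and 16 in Cb-T, a ratio of 45.3 with a counting interval of 7.77 to 1826, and was called (adjusted p = 1.0e-07). In F/M it was not tested, with 0 counts in F/M-N and 4, 17 and 9 in F/M-T, at least 3.12-fold higher when set against a floor of 3 counts per library. Ccl5, an attractant of T cells, rose 9.95-fold in F/M (adjusted p = 4.3e-05), from 2, 3 and 1 counts to 15, 21 and 27, and was not tested in Cb, where it had 1, 2 and 1 counts in Cb-N and 7, 11 and 15 in Cb-T. Cxcl14, a chemokine also made by some neurons, rose 1.60-fold in Cb (adjusted p = 7.3e-16), from 25.9 to 26.6 CPM in Cb-N to 41.3 to 41.9 CPM in Cb-T. Its fold was 1.06 in F/M (adjusted p = 0.19). The interaction was called (0.62, SE 0.059, adjusted p = 2.6e-09). Pf4, a marker of border macrophages and platelets, rose 1.99-fold in Cb (adjusted p = 0.018). Cxcl5 rose 1.62-fold in F/M (adjusted p = 0.077), although F/M-N replicate 1 with 11 counts stood below the other two with 25.

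Of the enzymes that cut chemokines or release them from the membrane, 7 were tested in each area, 3 rose in Cb and 2 in F/M, and none was called lower. Adam10 and Adam17, the sheddases of Cx3cl1 and Cxcl16, were at 0.965 and 0.983 of their control levels in Cb and at 0.960 and 1.11 in F/M, and neither was called. Dpp4, which trims Cxcl10 and Cxcl12, was at 1.12 in Cb (adjusted p = 0.41) against 1.02 in F/M (adjusted p = 0.86). Mmp12, the macrophage elastase, had 1, 1 and 0 counts in Cb-N against 83, 60 and 70 in Cb-T, a ratio of 96.6 with a counting interval of 26.4 to 803, and was called (adjusted p = 2.4e-16). In F/M it had 1, 2 and 0 counts against 32, 24 and 27, a ratio of 27.1 with an interval of 8.95 to 134 (adjusted p = 1.9e-06), and DESeq2 gave it no adjusted p there. Ctss, a lysosomal protease of microglia that can release Cx3cl1, rose 4.89-fold in Cb (adjusted p = 3.9e-38) and 2.46-fold in F/M (adjusted p = 2.4e-15), and it is also one of the microglial markers above. Mmp2 rose 1.87-fold in Cb (adjusted p = 5.4e-06) and was at 1.18 in F/M (adjusted p = 0.23). Mmp9, a gelatinase like Mmp2, lay the other way in Cb, at 2.66, 3.39 and 2.92 CPM in Cb-N and 2.11, 2.37 and 1.49 CPM in Cb-T. Its fold was 0.674 (adjusted p = 0.0068), just inside the limit, and 0.925 in F/M (adjusted p = 0.74).

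Of 19 genes that act downstream of chemokine receptors 10 rose in Cb and 7 of 18 tested in F/M, and none was called lower. With DESeq2 5 were called in F/M, since Fgr had no adjusted p and that of Was was 0.12. The called genes with the largest values in Cb were Rgs1, Fgr and Dock2. Rgs1, a brake on G proteins, was at 0 counts in every Cb-N library and had 17, 16 and 21 in Cb-T, at least 5.34-fold higher against the floor of 3 counts per library (adjusted p = 1.1e-08). Fgr, a kinase of myeloid cells, rose 6.59-fold in Cb (adjusted p = 9.6e-08) and 5.54-fold in F/M (adjusted p = 0.0004). Dock2, which activates Rac in leukocytes, rose 4.32-fold in Cb (adjusted p = 2.9e-17) and 1.88-fold in F/M (adjusted p = 9.5e-07), and Rac2 itself rose 2.66-fold in Cb (adjusted p = 1.3e-07) against 1.96-fold in F/M (adjusted p = 0.00098). Among those not called, Gnai2, a G protein subunit that chemokine receptors couple to, was at 1.25 in Cb (adjusted p = 4.7e-13) against 1.07 in F/M (adjusted p = 0.044).

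Of 17 transcription factors and regulators that induce chemokine genes 6 rose in Cb and 5 in F/M, and none was called lower. With DESeq2 5 were called in Cb, without Cebpb (adjusted p = 0.19). The largest in Cb were the myeloid factors Irf8 at 4.10-fold (adjusted p = 1.5e-15) and Spi1 at 3.55-fold (adjusted p = 6.5e-10), followed by Irf7 at 1.94-fold (adjusted p = 4.4e-07). In F/M Irf7 rose 4.95-fold (adjusted p = 4.3e-10), Irf8 1.86-fold (adjusted p = 2.3e-05) and Spi1 1.70-fold (adjusted p = 0.0013). Irf7 belongs to the interferon response, in which Cxcl10 is a known target. Irf7 was at 2.15 to 2.53 CPM in Cb-N against 4.19 to 4.97 in Cb-T, and at 1.34 to 1.80 CPM in F/M-N against 6.95 to 8.19 in F/M-T. The change of Irf7 was smaller in Cb than in F/M by 1.33 on the log2 scale (SE 0.21, adjusted p = 1.6e-05). Irf8 and Spi1 changed more in Cb, by 1.16 (adjusted p = 4.4e-05) and 1.08 (adjusted p = 0.0033). The subunits of NF-kappaB differed. Relb rose 1.81-fold in Cb (adjusted p = 4.6e-06) and was at 1.02 in F/M (adjusted p = 0.90), and this difference was called (0.85, SE 0.19, adjusted p = 0.0012). Nfkb2 was at 1.31 in Cb (adjusted p = 0.017) against 1.45 in F/M (adjusted p = 0.015), inside the fold limit, and Rela and Nfkb1 had folds between 0.968 and 1.02.

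The genes whose log2 CPM followed each chemokine most closely over the 12 libraries were found among 17482 genes by Pearson's r. These values are descriptive, since all libraries share 4 groups. Ccl3 was closest to Ifi204 (r = 0.9804) and Lilrb4a, Ccl4 to Cd22, and Ccl6 to Apoe and C4b. Ccl9 was closest to Snx5 and Il1rl2, Ccl12 to Iigp1 and Lag3, and Cxcl16 to Clec7a and Ftl1. Cxcl10 was closest to Gbp2 and Ifi204, both known as interferon-induced genes. This was not particular to Cxcl10, since Ifi204 followed Ccl3 more closely (r = 0.9804 against 0.9534). Cxcl12 was closest to 1700020I14Rik and Usp46. Cx3cl1 was closest to Cacnb1 (r = 0.9997), a calcium channel subunit, and Ncald, which like it were higher in F/M than in Cb, with Cacnb1 at 23.3, 27.3, 142 and 123 CPM on average in Cb-N, Cb-T, F/M-N and F/M-T.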

How the data were processed

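Poly(A)-selected, strand-specific, single-end RNA libraries from 12 samples of male mice were analysed. Per the labels and the methods, the authors aligned the reads to mm10 (GRCm38) with STAR and counted them per gene with featureCounts 1.26.1 (Rsubread), and they deposited 1 table of raw counts per library, not normalized. How strand and reads with several alignments were handled, and the annotation release, are not given in the sources used here. Groups came from the sample titles. Libraries of a group differed by more than sampling noise in all 12 pairs (chi-square over genes with at least 10 counts in the pair, divided by its degrees of freedom, 1.27 to 3.37). The spread was still small, with a common dispersion (edgeR) of 0.00048 in Cb and 0.00092 in F/M. Whether it covers the spread between mice cannot be told from the labels.

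Counts were tested in R 4.3.3 with edgeR 4.0.16: filterByExpr (minimum count 10, total 15), TMM, glmQLFit and glmQLFTest, with Benjamini-Hochberg adjustment over all genes tested. T and N were compared within the 6 libraries of an area. The difference of the changes and the comparisons of areas used all 12 libraries. CPM are scaled by TMM over the 12 libraries, the log2 CPM for correlations used a prior count of 2, and exact binomial 95% intervals were used for ratios of low counts. A member below the filter was tested by an exact permutation test. On simulated counts with 200 genes changed 2-fold the test recovered 186 of 195 tested in Cb (16353 genes), 190 of 197 in F/M (16668 genes) and 167 of 195 for the difference (17141 genes). False calls numbered 4, 5 and 5. The simulation gave all genes the same dispersion and drew the changed genes from all that passed the filter. It therefore says little about members with few counts.

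The members, gene lists and tests were chosen with earlier results of these data known. All members are named. Of the other ligands and receptors, those called in an area or in the difference were named, with the receptors known to bind a member. Of the enzymes, those known to cut a member and any called were named, and of the signalling and transcription factor lists the 3 called genes with the largest change in each area. Genes named beyond this, as general or uncalled members of those lists, were picked after their values were seen. The results of a few genes and 1 sequence are not reported here. Sequences came from GENCODE M21 and RefSeq (GRCm38.p6), read with Python 3.11.15. The alternatives were RLE size factors, no filter, a mean count of at least 50, a replicate block, DESeq2 1.42.0, limma-voom (limma 3.58.1), other samples in the fit, other limits and leaving out each library.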

Additional observations from a re-analysis of the deposited data

Results flagged for a closer look

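Results are listed here for genes with a reported change whose change in T against N differed between Cb and F/M in the test of the interaction (edgeR, adjusted p below 0.1 and at least 1.5 fold). Values are the log2 fold change in Cb minus that in F/M, from a fit of all 12 libraries. Among the chemokine genes they were Ccl6 at 1.46 and Cx3cl1 at 0.60, the only member with opposite signs in the areas, 0.32 for Cb but -0.28 for F/M in this fit. Among the other ligands and the receptors they were Cxcl14 at 0.62 and Cx3cr1 at 1.20. Of the enzymes they were Mmp2 at 0.68 and Ctss at 1.01. Downstream of the receptors they were Dock2 at 1.22 and Rgs1 at 5.71, a fitted value that depends on the prior count because Rgs1 had 0 counts in all Cb-N libraries. Of the transcription factors Irf8 was at 1.16, Spi1 at 1.08 and Relb at 0.85, whereas Irf7 at -1.33 changed more in F/M. Of the markers of other cells Fcrls was at 2.28, Tyrobp at 1.57, C1qa at 1.52, Sall1 at 0.65 and Gfap at 1.17. Of the olfactory bulb genes Cdhr1 was at 3.56 and Tbx21 at 3.27 (SE 1.13, adjusted p = 0.035), the latter not tested in Cb alone. Groups of 3 libraries are too small for the check on single outlying libraries.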

How the results depend on the processing

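The 7 members called in Cb came to 7 to 9 and those in F/M to 5 to 9 under every alternative run but 1. With a mean count of at least 50, 2 were called in Cb (of 4 tested) and 1 in F/M (of 3 tested), since most members have lower counts. With DESeq2, 5 of 7 were called in F/M because Ccl4 and Ccl12 had no adjusted p there. No member changed sign in either area. For the difference between the areas, 1 member was called instead of 2 with RLE size factors, with a mean count of at least 50 and with DESeq2, and 1 to 3 when a library was left out. The difference turned sign for Cxcl12 without a filter (5.0e-05, adjusted p = 1.0) and for Ccl4 without F/M-N replicate 3 (-0.32, adjusted p = 0.89), neither of them called. Between the control areas 2 were called, not 4, with a mean count of at least 50, and 3 or 4 when a library was left out. In the Tpp1-/- areas 1 was called, not 2, with a limit of 0.05, with a mean count of at least 50, with DESeq2 and with limma-voom, 8 without a fold limit, and 2 to 5 when a library was left out (5 without F/M-T replicate 1). The causes were not tested. Leaving out 1 N library moved the folds of Ccl3 in Cb and of Ccl4, Ccl12 and Cxcl10 in F/M by over 1.5 times, and each stayed called.

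Same-numbered libraries did not deviate together, neither N and T of an area (r between -0.016 and 0.062) nor Cb and F/M of a genotype (r between -0.0024 and 0.052), so the data give no hint that the numbers pair them. With the replicate block 7 members were called in Cb, 7 in F/M, 2 for the difference, 4 between the N areas and 2 between the T areas, the same as without it. For Ccl2 raw counts gave the same exact permutation p, 0.1 and 0.3, and its depth was below the count filter in both areas.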
